A study of Mus musculus with 6 samples.

Results

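The integrin, laminin and syndecan genes were followed in 3T3-L1 cells, a line of mouse embryo fibroblasts used as a model of fat cell formation. The 41 genes are all rows of the expression table whose symbol names an integrin alpha chain (18 genes), an integrin beta chain (8), a laminin chain (11) or a syndecan (4), out of 46095 rows. Expression decided only whether a member was tested, which required a mean of at least 1 FPKM (fragments scaled for gene length and for the library's total) over the 6 libraries. Of the 41 members, 18 reached it. Both groups were labelled adipocytes of this 1 cell line, taken 8 days after differentiation, and the labels name no genetic change in either. In 3 samples the cells had received 0.125 μg/mL of flavonoids from the plant Smilax glabra, and in 3 samples they were untreated. The labels give neither the length of exposure nor a vehicle for the controls. Nothing in the labels says that the samples of a group were separate cultures, so the p-values here reflect the spread among these 6 libraries alone, and that spread may be technical. The comparison asks which of these adhesion transcripts differed between flavonoid-treated and untreated cells.

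Integrins are receptors of 1 alpha and 1 beta chain that tie the cell's actin skeleton to the matrix outside. Laminins are cross-shaped trimers of an alpha, a beta and a gamma chain and form the basement membrane, the thin sheet that surrounds fat cells in tissue. Syndecans are single-pass proteoglycans whose heparan sulfate chains bind matrix proteins and growth factors beside integrins. As preadipocytes become fat cells, a fibronectin-rich matrix is known to give way to a laminin-rich one, and the integrin alpha chains are known to shift from the one that Itga5 encodes towards that of Itga6.

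Recovered whole fragments totalled 21952064 to 26355863 per library. Of 10 adipocyte markers 5 had a mean of at least 1 FPKM, with Adipoq at most 0.735 and Plin1 at most 0.362 FPKM in any library, while all 8 fibroblast and preadipocyte markers had such a mean. The adipocyte markers at that mean were Fabp4 (149 to 251 FPKM over all 6 libraries), Lpl (144 to 306), Pparg (9.32 to 12.3), Lipe (7.55 to 11.5) and Cebpa (5.55 to 7.67), so markers of the labelled cell type were present in part, and all 10 summed to 356 to 527 FPKM with flavonoids and 394 to 422 FPKM in untreated cells. The summed level of those fibroblast markers was 2386 to 2556 FPKM with flavonoids and 3269 to 3719 FPKM in untreated cells. Of the 8, Lum, Thy1 and Dcn fell (limma adjusted p = 0.0018, 0.0118 and 0.0142), or 37.5%, against 9.99% of all tested genes. Col1a1 and Col3a1, the most abundant of the list, were not called (limma adjusted p = 0.166 and 0.288), and Pdgfrb had a positive log2 change of 0.16. The part of these genes in the results was not tested. Of 6 endothelial, 6 epithelial and 4 Schwann cell markers none had a mean of 1 FPKM. The untreated libraries stood apart from each other by gene length. In the longest of 3 equal classes of tested genes by length, the median deviation from the group mean on the log2 scale was -0.21, 0.0014 and 0.21 in untreated replicates 1, 2 and 3, while the treated libraries lay between -0.063 and 0.050. Of the 18 tested members, 12 belong to that class. Untreated replicate 3 was the highest of its group for 14 of the 18, against 40.9% of all tested genes. Untreated replicate 1 was the lowest for 14, and the share of all tested genes for this was not computed. In bulk RNA, fewer cells of a type and less RNA per cell cannot be told apart.

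Flavonoid-treated cells had less Lamb3, a laminin beta chain, and less Itga1, a collagen- and laminin-binding integrin chain, and they had more Itgb2, the leukocyte integrin beta chain. No other tested member passed the test. Thus 2 of 18 tested members fell and 1 rose, 16.7% in all, against 9.99% of all 11464 tested genes, 5.13% called lower and 4.86% called higher (a limma fit of log2(FPKM + 1), with a Benjamini-Hochberg threshold of 0.05 over all genes tested). The fitted change was negative for 15 of the 18 and for 52.6% of all tested genes, with a median of -0.37 among the members and -0.022 among all genes on the log2(FPKM + 1) scale. The groups did not overlap for 9 of the 18, with 8 of these lower in treated cells, against 34.3% and 17.3% of all tested genes. With each library's smooth trend over gene length removed, 5 of the 18 were called lower and 2 higher, where 21.9% of all genes were called, 9.94% lower and 12.0% higher. The medians were then -0.31 among the members and 0.015 among all genes. Leaving out 1 library at a time gave 1 to 7 members lower and 0 to 1 higher, with the 7 lower found without untreated replicate 1. Over these fits 1.27% to 14.9% of all tested genes were called. The 14.9% was also found without untreated replicate 1, with 833 of 11464 genes lower. Changes on the log2(FPKM + 1) scale understate those of weakly expressed genes. Itga1 passed the filter on low values only through the untreated group, and the untreated mean of Itgb2 lay close to the limit, so their calls are not support for a change of the whole set.

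**Figure D1:**
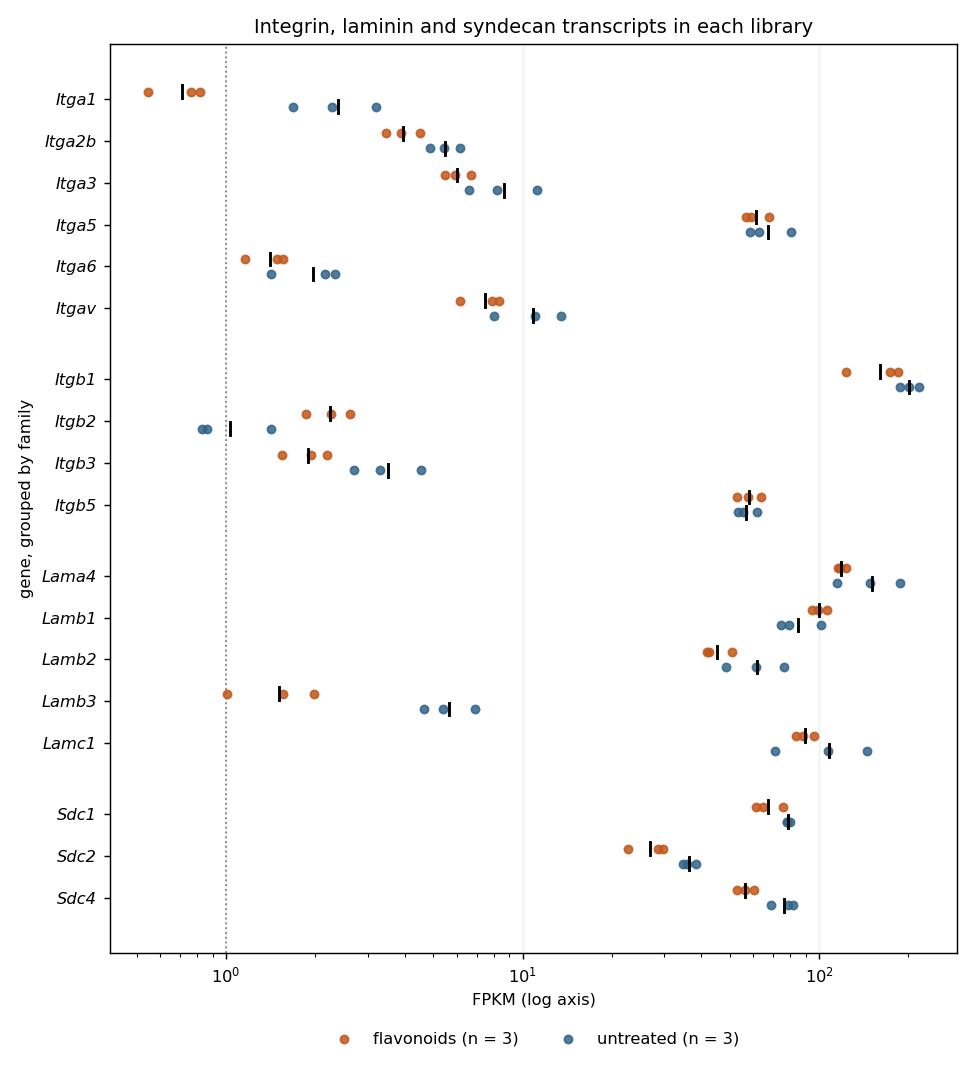
FPKM of the 18 tested members in each library on a log axis, with flavonoid-treated libraries above untreated ones for each gene and a black bar at each group mean; the dotted line marks 1 FPKM. The groups lie apart for Itga1, Itga2b, Itgb1, Itgb2, Itgb3, Lamb3 and all 3 syndecans, and the untreated points are spread widely for Lama4 and Lamc1.

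**Figure D2:**
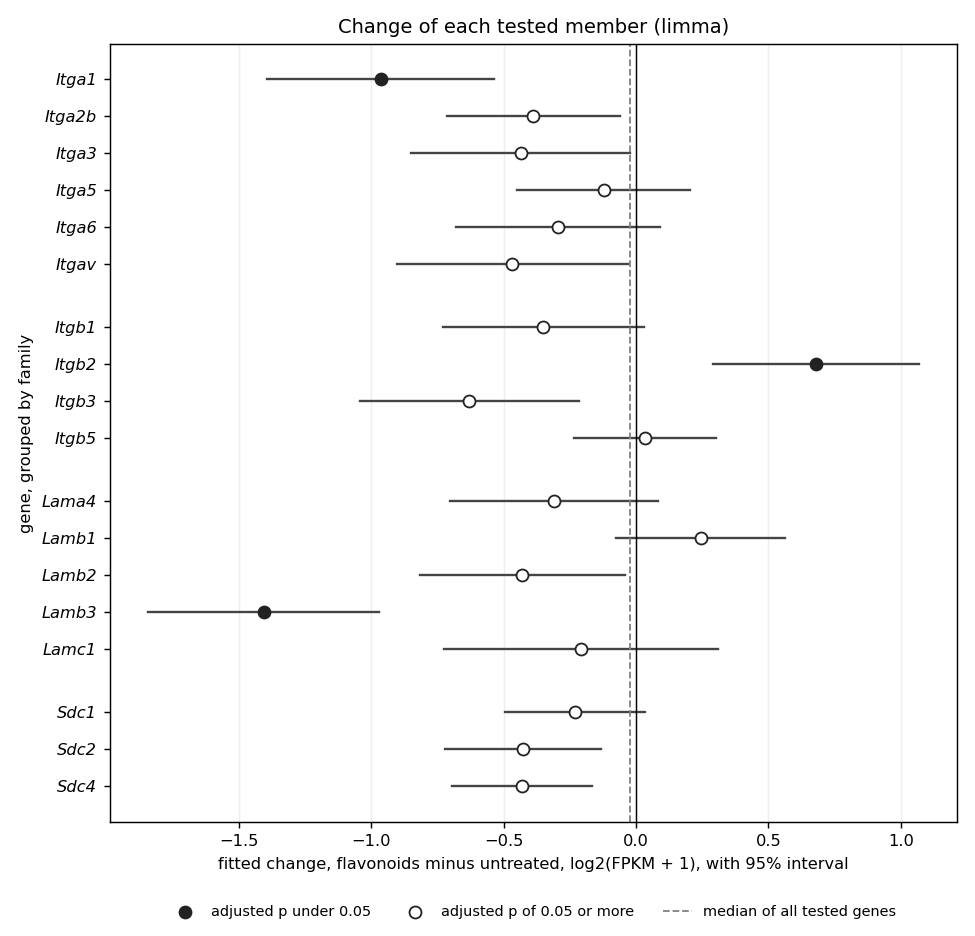
Fitted change of each tested member, flavonoids minus untreated, on the log2(FPKM + 1) scale, with its 95% interval from limma; filled points have an adjusted p under 0.05 and the dashed line is the median of all tested genes, -0.022. Lamb3 and Itga1 lie to the left and Itgb2 to the right as filled points, while the other 15 points are open.

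The promoters of the 2 members that fell are shown because those genes moved in the same direction. The 250 bases before the RefSeq start (GRCm38.p6) lie at chr1:193301744-193301993 on the plus strand for Lamb3, the first of 2 starts listed and inside the longer GENCODE gene, and at chr13:115101965-115102214 on the minus strand for Itga1. Capitals mark matches on either strand to the SMAD motif CAGAC, the only motif found of 4 searched.
Lamb3: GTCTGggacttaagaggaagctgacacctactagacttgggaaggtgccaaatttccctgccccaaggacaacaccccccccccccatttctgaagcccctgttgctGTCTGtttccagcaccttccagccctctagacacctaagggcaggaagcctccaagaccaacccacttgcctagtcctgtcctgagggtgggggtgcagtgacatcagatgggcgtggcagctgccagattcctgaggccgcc
Itga1: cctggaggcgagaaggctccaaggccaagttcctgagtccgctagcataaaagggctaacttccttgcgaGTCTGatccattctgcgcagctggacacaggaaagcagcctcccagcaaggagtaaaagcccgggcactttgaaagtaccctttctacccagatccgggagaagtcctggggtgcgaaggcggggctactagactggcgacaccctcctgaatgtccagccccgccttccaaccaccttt
Lamb3 holds 2 matches and Itga1 holds 1, and 42.1% of 27025 promoters of that length hold at least 1. The AP-1 motif TGANTCA, the TEAD motif GGAATG and the hypoxia response element ACGTG had no match in either window, where 6.87%, 12.6% and 16.6% of promoters hold them. No match overlapped another. RefSeq's table held promoters of 12 of the 18 tested members, and 7 of those 12 hold the SMAD motif.

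Among the laminins, the ligands of this group, the chains of the trimer made from Lama4, Lamb1 or Lamb2, and Lamc1 were abundant and did not pass the test, while the rare chain Lamb3 fell. Lama4 made up 99.5% ± 0.0905 of the summed laminin alpha FPKM with flavonoids and 99.2% ± 0.365 in untreated cells (SD, n = 3 each), and Lamc1 made up 99.1% ± 0.141 of the gamma chains with flavonoids and 99.1% ± 0.308 in untreated cells. The beta chains were divided between Lamb1 and Lamb2.

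Lamb3 encodes the beta chain of an epithelial laminin that anchors the skin to its basement membrane. It lies on chromosome 1 at 193207699 to 193343878 (GENCODE M21, GRCm38, as for all gene positions here). Its level was 1.01, 1.55 and 1.98 FPKM in treated replicates 1, 2 and 3, against 4.64, 5.40 and 6.88 FPKM in the untreated ones. Every treated library lay below every untreated one. The fitted log2 change was -1.41 (SE 0.19, limma adjusted p = 0.00546), and the group means of 1.51 ± 0.489 FPKM with flavonoids and 5.64 ± 1.14 FPKM in untreated cells (SD, n = 3 each) differ 3.73-fold. These levels rest on 102, 167 and 199 fragments in treated libraries and 416, 512 and 705 in untreated ones. Lama3, an alpha chain of that epithelial laminin, was at most 0.00403 FPKM in any library. Of 6 epithelial markers, Epcam, Krt18 and Krt14 were listed at 0 throughout, and the 6 summed to 0.112 to 0.155 FPKM with flavonoids and 0.450 to 0.845 FPKM in untreated cells. Most of that sum was the keratin gene Krt8, at 0.123 ± 0.0202 FPKM with flavonoids and 0.635 ± 0.162 FPKM in untreated cells (SD, n = 3 each). Its part in the Lamb3 result was not tested. The annotated Lamb3 gene also spans G0s2 and Hsd11b1 on the opposite strand, each with 0 shared exon bases. G0s2 measured 0.995, 1.16 and 0.814 FPKM in treated libraries against 4.46, 3.90 and 2.44 FPKM in untreated ones. Hsd11b1 measured 7.62, 5.79 and 4.46 FPKM in treated libraries and 6.95, 7.68 and 5.56 FPKM in untreated ones. The part of these genes in the Lamb3 value was not tested either.

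Lamb1 and Lamb2, which take the same place in the trimer, had fitted changes of opposite sign. Lamb1 measured 106, 94.6 and 99.2 FPKM in treated libraries and 74.2, 79.3 and 101 FPKM in untreated ones (log2 change 0.24, SE 0.14, limma adjusted p = 0.305). Lamb2, the beta chain known from synapses and the kidney filter, measured 42.5, 41.8 and 50.9 FPKM in treated libraries and 48.3, 61.1 and 76.1 FPKM in untreated ones (log2 change -0.43, SE 0.17, adjusted p = 0.148). The groups overlapped for each gene taken alone. The Lamb2 to Lamb1 ratio within a library was 0.401, 0.442 and 0.513 with flavonoids, against 0.651, 0.771 and 0.751 in untreated cells. The ratio did not overlap between groups and differed by -0.68 on the log2 scale (exact two-sided permutation p = 0.1, the smallest that 3 against 3 samples can give; 0.15 after adjustment over the 3 ratios computed here). This ratio was chosen after its values were seen, and the part of gene length in it was not tested. Lengths implied by the recovered fragments were 5816 bases for Lamb1 and 5661 bases for Lamb2. With the length trend removed the change was 0.35 for Lamb1 and -0.33 for Lamb2. Lamb1 made up 70.9%, 68.6% and 65.2% of the summed laminin beta FPKM in treated libraries and 58.3%, 54.4% and 55.0% in untreated ones. Lamb1 was called higher with the length trend removed (adjusted p = 0.0196) and without untreated replicate 3 (0.0449), and Lamb2 was called lower without untreated replicate 1 (0.0294). Without the opposite library the change of Lamb1 was 0.15 (adjusted p = 0.446, without untreated replicate 1) and that of Lamb2 was -0.27 (0.235, without untreated replicate 3).

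Lama4, the alpha chain of mesenchymal and vessel basement membranes, measured 117, 116 and 123 FPKM with flavonoids and 115, 149 and 187 FPKM without (log2 change -0.31, SE 0.17, limma adjusted p = 0.291). Lamc1, the common gamma chain, measured 88.4, 83.7 and 96.2 FPKM with flavonoids and 70.9, 107 and 145 FPKM without (log2 change -0.21, adjusted p = 0.599). For both, untreated replicate 1 lay below the treated libraries and untreated replicate 3 far above them. Without untreated replicate 1 the change of Lama4 was -0.49 (adjusted p = 0.0429) and that of Lamc1 was -0.48 (0.0665). Without untreated replicate 3 the change of Lama4 was -0.14 (0.518) and that of Lamc1 was 0.036 (0.919). The other laminin chains had means under 1 FPKM. Lama5, a widely expressed alpha chain, lay just outside the limit at a mean of 0.942 FPKM, with 0.666, 0.478 and 0.610 FPKM with flavonoids and 0.550, 1.09 and 2.26 FPKM without. The lowest member inside the limit was Itga1 at 1.55 FPKM. Lama2, Lama3 and Lamc3 were at most 0.0612, 0.00403 and 0.0577 FPKM, and Lama1 was listed at 0 in all 6 libraries.

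Among the integrin alpha chains, Itga1 fell and the other 5 tested chains did not pass the test, although all 6 had negative estimates. Itga5, whose product pairs with that of Itgb1 as the main fibronectin receptor, was by far the most abundant. It made up 74.6%, 73.5% and 77.5% of the summed alpha chain FPKM in treated libraries and 70.5%, 67.9% and 68.8% in untreated ones. These shares did not overlap between groups, and their difference was not tested. By FPKM the groups did not overlap for 34.3% of all tested genes. The summed alpha chain FPKM itself was 79.3, 77.3 and 87.2 with flavonoids and 82.8, 92.6 and 116 without.

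Itga1 (chromosome 13, 114953096 to 115101964) measured 0.761, 0.819 and 0.546 FPKM in treated libraries, against 1.68, 2.28 and 3.19 FPKM in untreated ones. The highest treated value lay below the lowest untreated value. The log2 change was -0.96 (SE 0.19, limma adjusted p = 0.0169), and the levels rest on 114, 130 and 81 fragments in treated libraries and 222, 319 and 483 in untreated ones. The call was lost without any 1 of treated replicates 1, 2 and 3 (adjusted p = 0.0712, 0.0526 and 0.0682) and without untreated replicate 2 (0.0862). It was also lost with no filter on low values (0.0642), and adjusted p ran from 0.00139 to 0.0862 among all settings. Pelo lies inside an intron of Itga1 on the same strand with 0 shared exon bases, and measured 14.1, 15.0 and 15.5 FPKM in treated libraries and 16.6, 16.0 and 12.3 FPKM in untreated ones. The annotated gene Gm49395 shares 685 exon bases with Itga1 on the same strand, and reads there cannot be told apart.

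Itga5 itself measured 59.1, 56.8 and 67.5 FPKM with flavonoids and 58.3, 62.9 and 80.1 FPKM without, and the groups overlapped (log2 change -0.12, 95% interval -0.45 to 0.21; 0.0098 without untreated replicate 3). Itga6, a laminin receptor chain, measured 1.56, 1.48 and 1.16 FPKM with flavonoids and 1.41, 2.15 and 2.33 FPKM without (log2 change -0.29, 95% interval -0.68 to 0.092). The Itga6 to Itga5 ratio was 0.0264, 0.0262 and 0.0172 with flavonoids and 0.0242, 0.0342 and 0.0291 in untreated cells, and its log2 difference of -0.34 did not pass (exact two-sided permutation p = 0.3, also after adjustment over the 3 ratios). In all 6 libraries, therefore, Itga5 stood far above Itga6.

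The remaining alpha chains were of middle or low level. Itgav, which joins several beta chains to bind vitronectin and to activate latent TGF-beta, measured 8.34, 7.87 and 6.15 FPKM with flavonoids and 8.01, 11.0 and 13.5 FPKM without (log2 change -0.47, limma adjusted p = 0.158). Itga3, a laminin receptor chain, measured 5.47, 5.90 and 6.69 FPKM with flavonoids and 6.58, 8.21 and 11.2 FPKM without (log2 change -0.44, adjusted p = 0.165). In both, only untreated replicate 1 lay within the treated range, and without that library both were called lower (adjusted p = 0.0320 for Itgav and 0.0426 for Itga3). Without untreated replicate 3 the changes were -0.31 for Itgav (adjusted p = 0.292) and -0.25 for Itga3 (0.310). Itga2b, known as the platelet fibrinogen receptor chain, measured 3.45, 3.89 and 4.52 FPKM with flavonoids and 6.15, 5.42 and 4.87 FPKM without (log2 change -0.39, adjusted p = 0.126). Its groups did not overlap, though the highest treated and the lowest untreated values lay close together.

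Among the integrin beta chains, Itgb2 rose, Itgb3 lay lower in every treated library without passing the test, and the abundant chains Itgb1 and Itgb5 did not pass. Itgb1, the partner of most alpha chains, measured 184, 173 and 123 FPKM in treated libraries and 187, 201 and 217 FPKM in untreated ones (log2 change -0.35, SE 0.17, limma adjusted p = 0.219). The groups lay just apart, and treated replicate 3 stood far below the other libraries. Without treated replicate 3 the change of Itgb1 was -0.17 (adjusted p = 0.499). Itgb5, which joins Itgav in a vitronectin receptor of many fibroblasts, measured 57.5, 53.0 and 63.4 FPKM with flavonoids and 53.1, 55.2 and 61.5 FPKM without (log2 change 0.033, 95% interval -0.24 to 0.30). Its sign turned with the scaling, to -0.024 on the TPM scale and -0.015 with quantile normalization, and was also negative without treated replicate 3 (-0.032) or untreated replicate 1 (-0.011).

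Itgb2 (chromosome 10, 77530252 to 77565708) encodes the shared beta chain of the leukocyte integrins. It measured 1.86, 2.62 and 2.26 FPKM in treated libraries, against 1.41, 0.827 and 0.859 FPKM in untreated ones. All treated values lay above all untreated ones, with untreated replicate 1 the nearest. The log2 change was 0.68 (SE 0.17, limma adjusted p = 0.0402), on 137, 205 and 165 fragments in treated libraries and 92, 57 and 64 in untreated ones. The call was lost without any 1 of treated replicates 1, 2 and 3 (adjusted p = 0.0888, 0.147 and 0.108), without untreated replicate 2 (0.181) or without untreated replicate 3 (0.0653). It was also lost with no filter on low values (0.107), and adjusted p ran from 0.00952 to 0.181 among all settings. Its partner alpha chains were nearly undetected: Itgal was at most 0.0606 FPKM, Itgam at most 0.00967 FPKM, and Itgax and Itgad were listed at 0 in all 6 libraries. Of 6 leukocyte markers, Cd68 had a mean of at least 1 FPKM and Ptprc, the common leukocyte antigen, was listed at 0 in all 6 libraries. The summed leukocyte markers ran from 1.92 to 2.62 FPKM with flavonoids and from 1.89 to 3.49 FPKM without. Their part in the Itgb2 result was not tested.

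Itgb3, the partner of Itgav and Itga2b, measured 1.54, 1.94 and 2.19 FPKM in treated libraries and 2.71, 3.30 and 4.54 FPKM in untreated ones. The groups did not overlap, and the log2 change was -0.63 (SE 0.18, limma adjusted p = 0.0628). It was called lower with the length trend removed (adjusted p = 0.0293), by voom on recovered fragments (0.0460) and without untreated replicate 1 (0.0261). Those 3 settings were the only ones to call it, and adjusted p ran from 0.0261 to 0.208 over all settings. Itgb5 is another of the beta chains that join Itgav. The Itgb3 to Itgb5 ratio was 0.0268, 0.0365 and 0.0345 with flavonoids and 0.0509, 0.0598 and 0.0737 without. It differed by -0.91 on the log2 scale (exact two-sided permutation p = 0.1, the smallest possible, and 0.15 after adjustment over the 3 ratios). This ratio too was chosen after its values were seen. Lengths implied by the recovered fragments were 5841 bases for Itgb3 and 3304 bases for Itgb5, and the part of gene length in the ratio was not tested. With the length trend removed the change was -0.52 for Itgb3 and 0.068 for Itgb5.

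**Figure D3:**
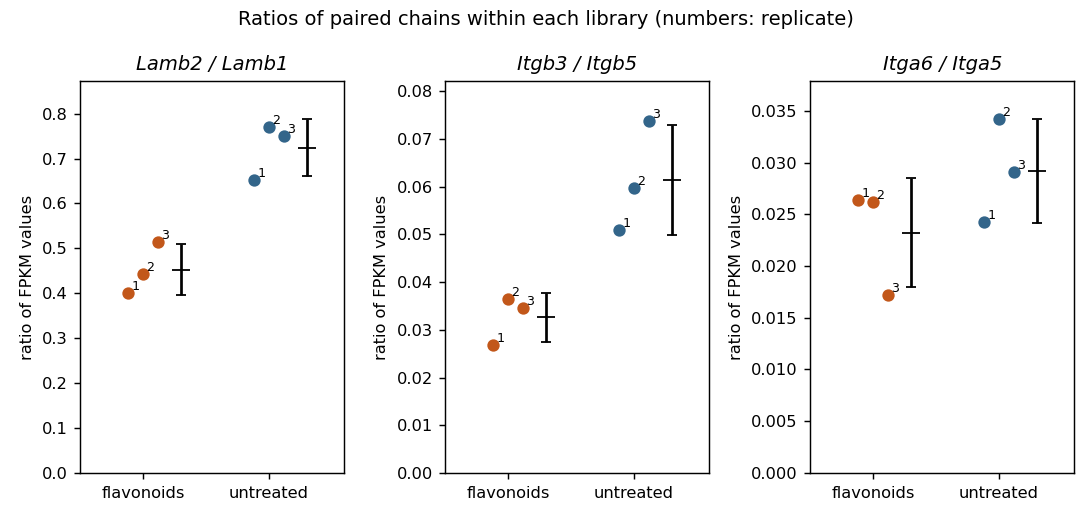
Ratio of the FPKM values of 2 chains within each library, for Lamb2 to Lamb1, Itgb3 to Itgb5 and Itga6 to Itga5, with flavonoid-treated libraries on the left; points carry the replicate number and bars show the mean ± SD of 3 libraries. The groups lie apart in the first 2 panels, at 0.401 to 0.513 with flavonoids and 0.651 to 0.771 in untreated cells for Lamb2 to Lamb1, and at 0.0268 to 0.0365 and 0.0509 to 0.0737 for Itgb3 to Itgb5, and overlap in the third.

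Of the 4 syndecans, Sdc1, Sdc4 and Sdc2 were abundant, and each lay lower in all 3 treated libraries than in any untreated one, but none passed the test. By limma 0 of the 3 tested were called, and voom on recovered fragments called 0. By limma 2 of the 3 had an unadjusted p under 0.05, against 3105 of all 11464 tested genes. Their summed level, with Sdc3, was 149.5, 143.8 and 158.3 FPKM in treated libraries and 194.4, 195.2 and 185.3 FPKM in untreated ones. Groups that do not overlap were seen for 34.3% of all tested genes, and for 17.3% with the treated libraries lower.

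Sdc4, a syndecan that gathers at focal adhesions with fibronectin-bound integrins, measured 56.1, 52.8 and 60.1 FPKM with flavonoids and 81.4, 78.6 and 69.1 FPKM without. Its log2 change was -0.43 (SE 0.12, limma adjusted p = 0.0505), just outside the threshold. It was called lower with the length trend removed (adjusted p = 0.00970), on the TPM scale (0.0189), with quantile normalization (0.0164), with a minimum mean of 5 FPKM (0.0492) and without untreated replicate 3 (0.0165), and adjusted p ran from 0.00970 to 0.222 over all settings. Sdc2, the main syndecan of many fibroblasts, measured 28.5, 29.7 and 22.7 FPKM with flavonoids and 34.7, 38.6 and 35.9 FPKM without (log2 change -0.43, SE 0.13, adjusted p = 0.0734). It was called lower only with the length trend removed (0.0239) and with quantile normalization (0.0462), and adjusted p ran from 0.0239 to 0.278 over all settings. Sdc1, known from epithelia and plasma cells, measured 64.7, 61.2 and 75.4 FPKM with flavonoids and 78.0, 77.7 and 80.0 FPKM without (log2 change -0.23, SE 0.12, adjusted p = 0.244). In Sdc1 treated replicate 3 came close to the untreated libraries, while in Sdc2 it lay farthest from them. Sdc3, a syndecan of the nervous system, was under the limit at 0.135, 0.135 and 0.144 FPKM with flavonoids and 0.297, 0.204 and 0.315 FPKM without.

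The 23 members not tested had means under 1 FPKM. Of these, 6 were listed at 0 in all libraries: Itga2, Itga4, Itgad, Itgax, Itgb6 and Lama1. Another 9 had means above 0 but under 0.1 FPKM. Besides the chains named above these were Itga8, Itga9, Itgae and Itgb8, at most 0.0618, 0.0129, 0.0283 and 0.166 FPKM in any library. The remaining 8 had means of at least 0.1 FPKM. Together with Lama5 and Sdc3, this last set held Itga11, a collagen receptor chain of fibroblasts, at 0.243, 0.168 and 0.172 FPKM with flavonoids and 0.275, 0.372 and 0.842 FPKM without. It also held Itga7, a laminin receptor chain of muscle, at 0.192, 0.152 and 0.162 FPKM with flavonoids and 0.0781, 0.107 and 0.0759 FPKM without, on at most 25 fragments in a library. It further held Itgb7, at most 0.377 FPKM, Itga10, at most 0.212 FPKM, and Itgb4, the epithelial laminin receptor chain, at most 0.151 FPKM. With no filter on low values none of the 17 untested members above 0 was called by limma, and the lowest adjusted p was 0.0849, for Itga7. At an unadjusted p under 0.05, 2 of all 35 members above 0 were higher and 9 were lower in that fit. Among all 22235 genes of that fit, more were likewise lower than higher at this limit. Their counts are given below with the other settings, and the difference between members and all genes was not tested.

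**Figure D4:**
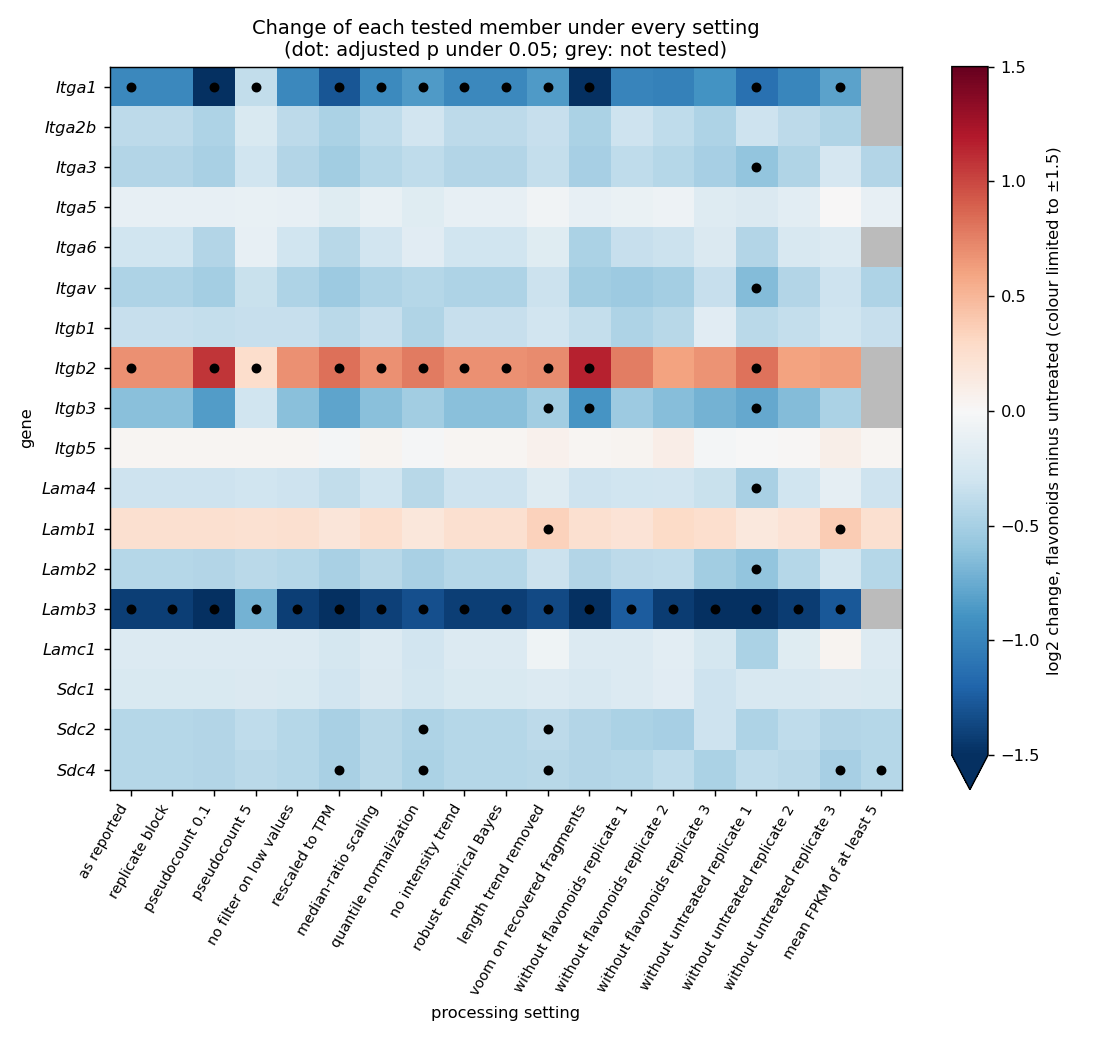
Fitted log2 change of each tested member (rows), flavonoids minus untreated, as reported and under 18 other settings (columns), with red for higher and blue for lower in treated cells, a dot where the adjusted p was under 0.05 and grey where the gene was not tested. Lamb3 has a dot in all 18 columns in which it was tested, Itga1 in 12 and Itgb2 in 11.

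Genes that act with these members were followed in 8 lists, of which 6 held called genes. For each, the values over all tested genes are 5.13% called lower, 4.86% called higher, 9.99% in either direction and a median log2 change of -0.022. Of 11 other basement membrane genes tested, 3 fell and 0 rose (27.3% called), with a median log2 change of -0.33. Nid2, a nidogen that links laminin to type IV collagen, measured 2.15, 2.49 and 2.46 FPKM in treated libraries and 5.60, 6.92 and 9.35 FPKM in untreated ones (log2 change -1.28, limma adjusted p = 0.00582). Agrn, the heparan sulfate proteoglycan agrin, fell by 0.76 and Col18a1, a basement membrane collagen, by 0.69 on the log2 scale (adjusted p = 0.0348 and 0.0261). Nid1 and Col4a1 had changes of -0.18 and 0.12 (adjusted p = 0.622 and 0.666).

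Of 27 integrin activators and adhesion plaque genes, 3 fell and 0 rose (median -0.11), and the 11.1% called lies near the 9.99% of all tested genes. Fermt2, a kindlin that switches integrins on from inside the cell, measured 25.8, 27.4 and 20.4 FPKM in treated libraries and 36.1, 42.8 and 40.5 FPKM in untreated ones (log2 change -0.68, limma adjusted p = 0.0189). The kinase gene Ptk2b and the tensin gene Tns3 fell by 0.57 and 0.62 on the log2 scale (adjusted p = 0.0435 and 0.0485), while the talin gene Tln1 and the focal adhesion kinase gene Ptk2 had changes of -0.084 and -0.046. Of 9 membrane partners, 2 rose and 2 fell (44.4% called, median 0.034). Slc3a2, a heavy chain that binds both integrin beta tails and amino acid transporters, rose 2.14-fold, with 292, 268 and 312 FPKM in treated libraries and 146, 122 and 142 FPKM in untreated ones (log2 change 1.09, adjusted p = 0.00353). Plaur, the urokinase receptor, rose by 0.72, Bsg, basigin, fell by 0.66, and the tetraspanin gene Cd82 fell by 0.41 on the log2 scale (adjusted p = 0.0244, 0.0267 and 0.0386).

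Of 14 integrin ligands tested, the matricellular genes Cyr61 and Ctgf fell (log2 changes -0.79 and -0.50, limma adjusted p = 0.00937 and 0.0330) and 0 rose, with a median of -0.15, and the 14.3% called compares with 9.99% of all tested genes. Fn1, the fibronectin gene, measured 771, 664 and 804 FPKM in treated libraries and 434, 672 and 1124 FPKM in untreated ones, with the untreated group the wider. Of 13 genes for dystroglycan and other laminin receptors, 1 rose and 0 fell (7.69% called, under the 9.99% of all tested genes, median -0.18). Of 16 heparan sulfate genes, 1 fell and 0 rose (6.25% called, also under that share, median -0.077). The gene that fell was Sulf2, which trims sulfate from the chains outside the cell, at 44.6 ± 3.80 FPKM in treated and 77.5 ± 14.2 FPKM in untreated cells (SD, n = 3 each, adjusted p = 0.0169). None of 3 glypicans and none of 5 syndecan cytoplasmic partners was called by limma or by voom. By limma 1 gene in each list had an unadjusted p under 0.05, against 3105 of all 11464 tested genes. Of the 14 genes called in these lists, Slc3a2 and Nid2 were called whichever library was left out, and the other 12 were lost without untreated replicate 2. Over the leave-outs, 1 to 6 basement membrane genes and 0 to 6 adhesion plaque genes were called lower, against 81 to 833 of all 11464 tested genes.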

How the data were processed

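Total RNA of 6 samples was extracted with TRIzol and made into TruSeq libraries, per the labels' protocols. The tools named are FastQC and HISAT2, with the genome build mm10, per the submitters' processing notes. The authors deposited FPKM values in 1 table with 1 column per sample, and 0 columns were left unused. The fragment counter, annotation, strand setting and versions are not stated in the labels or file header, so reads of close paralogs and overlapping genes cannot be assigned with certainty.

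Genes whose mean over the libraries reached 1 FPKM entered a limma fit (version 3.58.1, R 4.3.3) of log2(FPKM + 1), flavonoids minus untreated, with a mean-variance trend and without covariates or further scaling. Its two-sided p-values were adjusted by Benjamini-Hochberg over every gene in the fit, and 0.05 was the threshold. Chain ratios were tested by exact permutation over samples. Whole fragments were solved from the steps between FPKM values (tolerance 0.005 fragments), up to a common divisor per gene, and all values of 22235 genes came out whole. These fragments gave depths, implied gene lengths (scaled by the sum of recovered fragments, so approximate) and a voom fit, and they speak to counting error only. The scripts were tested on simulated data. The fit was repeated with a block for the replicate number, with a pseudocount of 0.1 or 5, with no filter or a minimum of 5 FPKM, after TPM, median-ratio or quantile scaling, without the trend, with robust empirical Bayes, after removal of the length trend, and without each library in turn. Python 3.11.15 was used for the rest. Positions come from GENCODE M21.

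The members and lists were chosen with earlier results of these data known. The rule for named genes takes every member and, from each list, up to 3 called genes of smallest p in each direction. Other genes named were chosen after their values were seen, and a few genes are not reported here.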

Additional observations from a re-analysis of the deposited data

How the results depend on the processing

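The changes of the 18 tested members gave 318 values over 18 other settings, of which 283 kept their sign and side of the threshold, 13 lost a call, 16 gained one and 6 turned sign. Sign turns were found for Itga5 without untreated replicate 3 (0.0098), Lamc1 without untreated replicate 3 (0.036) and Itgb5 on the TPM scale (-0.024), with quantile normalization (-0.015), without flavonoids replicate 3 (-0.032) and without untreated replicate 1 (-0.011). Over leave-outs these ranged from -0.22 to 0.0098 for Itga5, -0.48 to 0.036 for Lamc1 and -0.032 to 0.095 for Itgb5. As reported, 1 member was called higher and 2 lower, with 557 genes called higher and 588 genes called lower. With the replicate block limma gave 0 members called higher and 1 lower (1 and 7 at an unadjusted p under 0.05). Among all genes 220 were then called higher and 237 lower (1335 and 1424 unadjusted). The calls of Itga1 (adjusted p = 0.0660) and Itgb2 (0.123) were lost. Samples of the same number did not deviate together (correlations -0.14, -0.12 and -0.20 for replicates 1, 2 and 3), and samples of different numbers gave -0.085 to 0.17. With 3 samples per group these values cannot settle whether the numbers pair the samples. With no filter limma gave 0 members called higher and 1 lower (2 and 9 unadjusted). Among all genes 317 were then called higher and 324 lower (1750 and 2228 unadjusted). With a minimum of 5 FPKM limma called 0 members higher and 1 lower (0 and 5 unadjusted). Of 7884 genes 496 were then called higher and 417 lower (1211 and 1066 unadjusted). Itga1, Itgb2 and Lamb3 were among the members not tested at that minimum. Quantile normalization gave 1 member higher and 4 lower, with 710 and 666 genes. Removal of the length trend gave 2 members higher and 5 lower, with 1375 and 1139 genes. Leaving out each library gave 0 to 1 members higher and 1 to 7 lower, with 65 to 876 genes higher and 81 to 833 lower. The fewest genes were called without untreated replicate 2 and the most without untreated replicate 1. The cause was not tested. Over the leave-outs the log2 difference of the Itga6 to Itga5 ratio ran from -0.47 to -0.14. That of Lamb2 to Lamb1 ran from -0.78 to -0.60 and that of Itgb3 to Itgb5 from -1.04 to -0.77. The groups lie apart in these last 2 ratios, so leaving out 1 library could not turn their sign. Both were also chosen after their values were seen. Few fragments limit Itgb2, with 57 to 205 per library.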
